A study of Mus musculus with 12 samples.

Results

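The genes described here carry the symbol Rnf followed by a number, which stands for RING finger protein. They were taken as every gene whose symbol on the array began in this way, which gave 79 of 29411 genes, on 130 of the 61307 probes, and 38 of the genes met a rule for naming given with the processing. RING finger proteins are ubiquitin ligases, which bring a ubiquitin-carrying enzyme to a substrate so that ubiquitin is passed on to it. The kind of ubiquitin chain decides whether the substrate is degraded by the proteasome or gains a signalling role. In B cells the receptors CD40 and TLR-2 both signal to NF-κB through adaptor complexes that are assembled and dismantled by ubiquitin, and several Rnf proteins act in these complexes. The genes share a name and a domain, and differ widely in location and substrate.

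Resting B (RB) cells from spleens of BALB/c mice, female and 6 weeks old by their labels (the methods give male or female mice), were isolated by negative selection with anti-CD43. They were left unstimulated or stimulated for 4 h with Pam2CSK4, a lipopeptide ligand of TLR-2, with anti-CD86, with both (TLR2.CD86), with anti-CD40, or with anti-CD40 and Pam2CSK4. RNA of each of the 6 groups was hybridised to 2 one-colour arrays, 12 in all, which the study describes as biological replicates, and pooling of animals is not given in the sources used here. All values below are log2 signals from which the 75th percentile of each array was subtracted, so that 0 is the level of that percentile, and the values of 2 arrays are given as replicate 1 and replicate 2.

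The arrays carried 2 scan dates, and arrays with the same scan date were taken as lying on 1 slide. The slide itself was not read, so slide 1 and slide 2 below stand for the 2 scan dates. Slide 1 held both unstimulated arrays, both arrays of anti-CD40 with Pam2CSK4 and replicate 1 of the other groups, and slide 2 held replicate 2 of those 4 groups. Between 46.6% and 60.6% of the spots of an array were well above background, and the highest share was that of anti-CD40 replicate 2. All 9 B cell markers were well above background on every array. The methods checked the purity of the cells by flow cytometry for B and T cell surface markers. All 9 myeloid markers were also well above background on every array. The summed signal of the myeloid list, in units of the 75th percentile, was 469 and 501 in unstimulated cells, 424 and 373 with Pam2CSK4, 379 and 346 with anti-CD86, 372 and 325 with TLR2.CD86, 397 and 339 with anti-CD40, and 414 and 466 with anti-CD40 and Pam2CSK4. The summed signal of 11 T and NK cell markers was 42.6 and 42.9, 37.9 and 32.0, 33.3 and 27.8, 32.4 and 25.5, 34.3 and 27.1, and 34.8 and 34.2 in the same order. Both lists were highest in unstimulated cells, and 5 liver markers summed to 0.491 and 0.320 with anti-CD40 and Pam2CSK4 against 4.47 to 9.16 on the other arrays. The part of these lists in the Rnf results was not tested. In such a mixture, fewer cells of a type and less RNA per cell cannot be told apart.

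Of the 79 Rnf genes, 59 were well above background on all 12 arrays by their brightest probe, 12 on some arrays and 8 on none. No Rnf gene was saturated. The test was made on 63 genes, and the other 16 (Rnf17, Rnf32, Rnf112, Rnf128, Rnf133, Rnf148, Rnf150, Rnf152, Rnf165, Rnf180, Rnf182, Rnf183, Rnf186, Rnf207, Rnf212 and Rnf222) were not well above background on both arrays of any group. On anti-CD40 replicate 2, 6 of these 16 genes were well above background, against 0 to 2 on each other array. Rnf183 was at -5.84 and -2.16 on the anti-CD40 arrays and Rnf186 at -5.89 and -3.32, so that each was higher on replicate 2, and both genes were chosen after their values were seen. Kidney markers were also highest on that array, with a summed signal of 0.767 against 0.174 to 0.484 on the others, and Umod and Slc34a1 were below background on it. On the other slide 2 arrays these sums were 0.454 to 0.484, and on slide 1 0.174 to 0.313. The median intensity of anti-CD40 replicate 2 was also the highest, at 51.3 against 17.3 to 33.5 on the others. The part of these markers, or of the higher median intensity, in the signals of the dim Rnf genes was not tested. Rnf151, a testis gene, was likewise at -4.03 and -0.67 with anti-CD40. Its replicates lay far apart, with -3.37 and -5.38 in unstimulated cells and -3.68 and -3.27 with TLR2.CD86, and the difference for anti-CD40 was 2.02 (adjusted p = 0.2, SE 1.01). Rnf32, another germline gene, was well above background on 2 of 12 arrays and was not tested.

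The first question was which Rnf genes responded to each stimulus. A gene was called at a limma adjusted p under 0.05 over all probes tested, by its brightest probe. No Rnf gene was called with Pam2CSK4, where 0.149% of all 16751 genes tested were called, and 12 Rnf genes had an unadjusted p under 0.05. With anti-CD86, 2 Rnf genes were called against 2.04% of all genes. With TLR2.CD86, 13 of 63 (20.6%) were called against 12.1% of all genes, 2 of them higher against 1.78% and 11 lower against 10.3%. With anti-CD40, 12 of 63 (19.0%) were called against 19.2%, 2 higher against 4.66% and 10 lower against 14.6%. With anti-CD40 and Pam2CSK4, 14 of 63 (22.2%) were called against 20.3%, 3 higher against 7.36% and 11 lower against 12.9%. For both CD40 groups the share of Rnf genes was near that of all genes. The counts for anti-CD86, TLR2.CD86, anti-CD40 with Pam2CSK4 and the F test include Rnf39, as higher in the comparisons with unstimulated cells. Rnf39 passed the filter on dim probes only through groups in which it was high, so these calls of it are not supported. By the moderated F test, 19 of 63 (30.2%) differed among the 6 groups, against 20.8% of all genes, and without either unstimulated array 2 did.

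The median log2 fold change of the 63 genes was -0.20, -0.18, -0.22, -0.21 and -0.16 for Pam2CSK4, anti-CD86, TLR2.CD86, anti-CD40 and anti-CD40 with Pam2CSK4. The median of all genes was -0.14, -0.15, -0.17, -0.15 and -0.08 in the same order, so that a fold change of a single gene has to be read against this shift. The 2 unstimulated arrays were close to each other, with a median SD of 0.035 over the tested Rnf genes, against 0.05 to 0.20 in the other groups. Where arrays of a gene are said below to lie below or above the unstimulated arrays, the share of all genes that did so is not given. Such statements describe the values of that gene and are no result about the Rnf genes. Calls depended on the scaling. With the median of the array in place of the 75th percentile, 0, 0, 1, 1 and 0 Rnf genes were called in these 5 comparisons, and with the slide as a block 11, 22, 30, 27 and 34. The shares of all genes called rose too with the slide block, to 11.8%, 30.6%, 38.7%, 42.1% and 52.9%. Without either unstimulated array no Rnf gene was called with anti-CD86, TLR2.CD86 or anti-CD40, and 3 (without replicate 1) or 5 (without replicate 2) with anti-CD40 and Pam2CSK4. Without TLR2.CD86 replicate 1 or 2, 5 or 0 were called with TLR2.CD86. Without anti-CD40 replicate 2, 2 were called with anti-CD40, and without either array of anti-CD40 with Pam2CSK4, 6 with that combination. Without either anti-CD86 array none was called with anti-CD86.

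**Figure D1:**
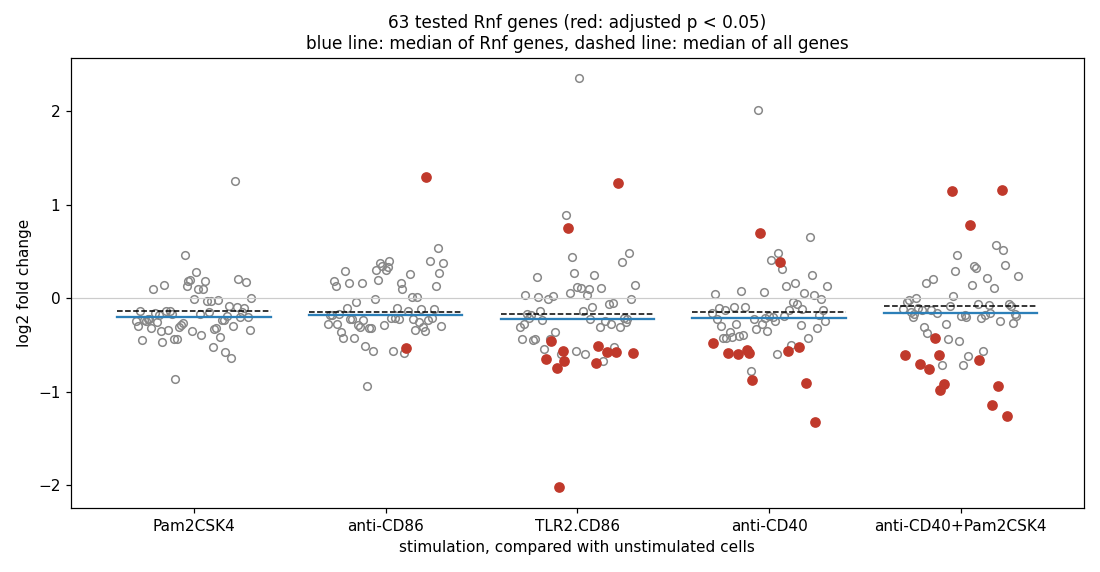
Log2 fold change of the 63 tested Rnf genes (points) for each stimulation against unstimulated cells, with called genes in red, the median of the Rnf genes as a blue line and the median of all genes as a dashed line. Most points lie near the shifted median, and the called genes number 0, 2, 13, 12 and 14 from left to right.

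**Figure D2:**
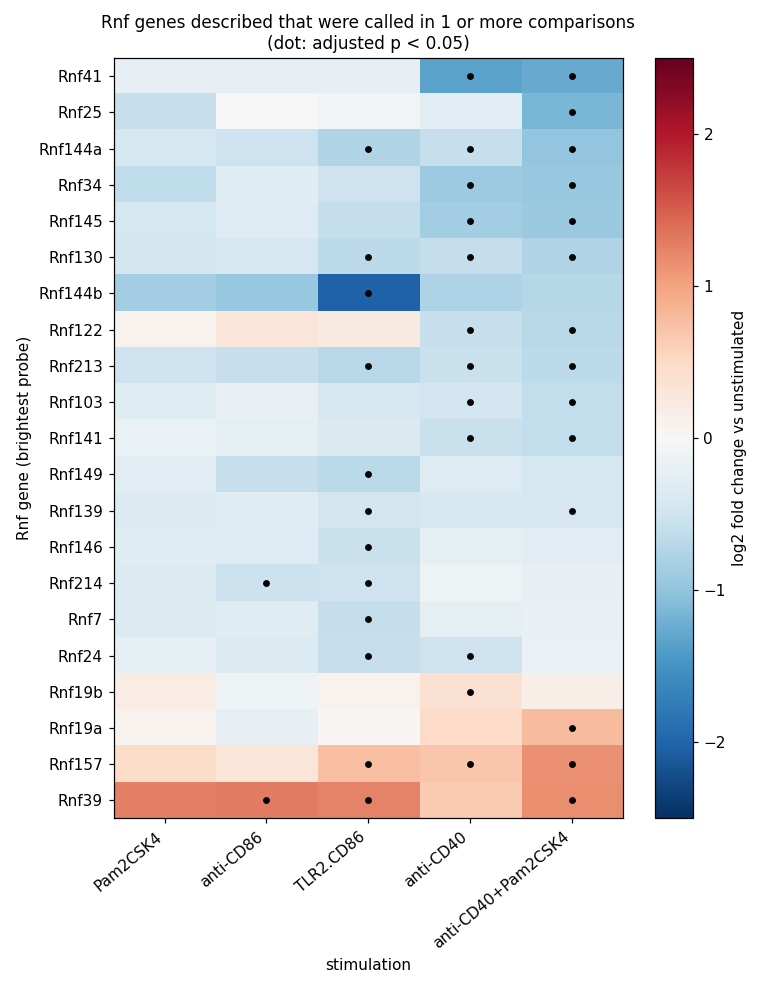
Log2 fold change of the Rnf genes described in the text that were called in 1 or more comparisons with unstimulated cells (rows) for 5 stimulations (columns), with a dot where the adjusted p was under 0.05. Rnf41 is lowest in both anti-CD40 columns, Rnf144b in the TLR2.CD86 column, and Rnf19a, Rnf19b, Rnf39 and Rnf157 are the genes called higher. The dots of Rnf39 rest on the filter on dim probes and support no call.

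Among 9 ligases of signalling and immune pathways, none was called with Pam2CSK4 or anti-CD86, 2 were called lower with TLR2.CD86, 3 with anti-CD40 and 4 with anti-CD40 and Pam2CSK4, and none higher. Of all genes, 10.3%, 14.6% and 12.9% were called lower in the last 3 groups. The median log2 fold changes of the 9 ligases were -0.22, -0.22, -0.27, -0.29 and -0.28. Those of all genes were -0.14, -0.15, -0.17, -0.15 and -0.08. Rnf41 (also Nrdp1) is a ligase known for its action on ErbB receptors and on the adaptor MyD88 of TLR signalling. Its signal was 1.23 and 1.18 in unstimulated cells, 1.13 and 0.88 with Pam2CSK4, 1.18 and 0.80 with anti-CD86 and 1.18 and 0.81 with TLR2.CD86. It was 0.15 and -0.39 with anti-CD40 and -0.05 and -0.05 with anti-CD40 and Pam2CSK4. All 4 arrays with anti-CD40 lay below all other arrays. The log2 fold change was -1.33 (adjusted p = 0.00913, SE 0.22) with anti-CD40 and -1.26 (adjusted p = 0.0067, SE 0.22) with both, and -0.20, -0.21 and -0.21 with Pam2CSK4, anti-CD86 and TLR2.CD86, none of which passed. Within slide 1 the anti-CD40 difference was -1.06.

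Rnf41 was measured by 3 probes of 60 bases that do not overlap. Their first 30 bases are shown because the finding rests on separate stretches of the transcript.
Rnf41 brightest probe: ctgcttctggcatgaaggactttggggcac
Rnf41 middle probe: ctcgtggaaagtggctgcccggcctccatc
Rnf41 dimmest probe: tttatcgtgcaccgaatgtaaatataatgg
The middle probe gave -0.52 (adjusted p = 0.016) with anti-CD40 and -0.66 (adjusted p = 0.0043) with anti-CD40 and Pam2CSK4. The dimmest gave -1.52 (adjusted p = 0.00229) and -0.86 (adjusted p = 0.0104). All 3 probes were thus called lower in both anti-CD40 groups, and none was called in the other groups. The dimmest had a mean of -3.10 over the 12 arrays, against 0.67 for the brightest and 0.55 for the middle probe. Whether it passed the filter on dim probes only through groups in which it was higher was not tested. The finding therefore rests on the brightest and the middle probe.

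Rnf34, a cytosolic ligase that binds phospholipid membranes, was at 1.52 and 1.51 in unstimulated cells, 0.80 and 0.41 with anti-CD40 and 0.53 and 0.61 with anti-CD40 and Pam2CSK4. Every stimulated array, with or without anti-CD40, lay below the unstimulated arrays. The log2 fold changes with anti-CD40 and with the combination were -0.91 (adjusted p = 0.0225, SE 0.20) and -0.94 (adjusted p = 0.0152, SE 0.20). With Pam2CSK4 it was -0.64 (adjusted p = 0.22, SE 0.20), which did not pass. Rnf25, a ligase known to bind the p65 subunit of NF-κB, was at -1.86 and -1.85 in unstimulated cells, -2.17 and -2.68 with Pam2CSK4, -2.01 and -2.27 with anti-CD40 and -2.92 and -3.07 with both. Both arrays of the combination were the lowest of the 12, and the log2 change was -1.14 (adjusted p = 0.00524, SE 0.19). Rnf213, a very large ligase with an ATPase core, was at 2.86 and 3.005 in unstimulated cells and lower on every stimulated array, at 2.38 and 2.100 with TLR2.CD86 and 2.24 and 2.298 with anti-CD40 and Pam2CSK4. Its log2 change was -0.69 (adjusted p = 0.0248, SE 0.14) with TLR2.CD86, -0.56 (adjusted p = 0.0311, SE 0.14) with anti-CD40 and -0.66 (adjusted p = 0.014, SE 0.14) with anti-CD40 and Pam2CSK4. Rnf146, which recognises poly-ADP-ribose on substrates such as axin, was -0.56 (adjusted p = 0.0498, SE 0.15) with TLR2.CD86, at the edge of the threshold. The middle one of its 3 probes gave -0.52 (adjusted p = 0.124) and the dimmest -0.03 (adjusted p = 0.938). With anti-CD40 and Pam2CSK4 the middle probe was called lower, at -0.96 (adjusted p = 0.0135), and the other two were not called. Rnf115 was -0.45 (adjusted p = 0.149, SE 0.19) with TLR2.CD86 and did not pass.

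The RBR ligases carry ubiquitin on a cysteine of their own before they pass it on, and 7 of the 8 listed were on the array and tested. With TLR2.CD86 2 were called lower and none higher, and with each anti-CD40 group 1 was called in each direction. Of all genes, 10.3% were called lower with TLR2.CD86. With anti-CD40 14.6% were lower and 4.66% higher, and with anti-CD40 and Pam2CSK4 12.9% and 7.36%. Rnf144b, a ligase known as a p53 target, was at -1.77 and -1.62 in unstimulated cells, -2.57 and -2.56 with Pam2CSK4, -2.54 and -2.74 with anti-CD86 and -3.53 and -3.905 with TLR2.CD86. It was -2.93 and -2.01 with anti-CD40 and -2.46 and -2.35 with anti-CD40 and Pam2CSK4. Both TLR2.CD86 arrays lay below all other arrays, and every stimulated array lay below the unstimulated arrays. The log2 fold change was -2.02 (adjusted p = 0.0107, SE 0.27) with TLR2.CD86, or -1.86 relative to the median of all genes. The probe was well above background on all 12 arrays. Both TLR2.CD86 values lay near the lowest signal well above background on their arrays, so the size of this change is uncertain. With Pam2CSK4 and anti-CD86 alone it was -0.87 (adjusted p = 0.22, SE 0.27) and -0.94 (adjusted p = 0.0992, SE 0.27). The gene has 1 probe on the array, whose first 30 bases are shown because no second probe measured this change.
Rnf144b probe: gcggtggaatgtatcctaagtgggcatgta
The change of Rnf144b with TLR2.CD86 was known from earlier results of these data when the gene was named, so it is not independent evidence.

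Rnf144a, its close relative, was at -0.83 and -0.78 in unstimulated cells, -1.41 and -1.695 with TLR2.CD86, -1.304 and -1.47 with anti-CD40 and -1.85 and -1.73 with anti-CD40 and Pam2CSK4. The log2 fold changes were -0.75 (adjusted p = 0.0267, SE 0.15), -0.58 (adjusted p = 0.0383, SE 0.15) and -0.98 (adjusted p = 0.00445, SE 0.15). Rnf144a was lower on every stimulated array than on the unstimulated arrays. Its second probe gave -0.24 (adjusted p = 0.469), -0.27 (adjusted p = 0.379) and -1.202 (adjusted p = 0.00634), so that the combination alone was called by both probes. Rnf19a (also dorfin) was at 2.96 and 3.002 in unstimulated cells, 3.68 and 3.25 with anti-CD40 and 3.79 and 3.74 with anti-CD40 and Pam2CSK4, and all 4 arrays with anti-CD40 lay above the unstimulated arrays. Its log2 change was 0.79 (adjusted p = 0.0459, SE 0.22) with the combination. The third probe gave 0.64 (adjusted p = 0.0231) with anti-CD40 and 1.02 (adjusted p = 0.00273) with the combination, and the second 0.46 (adjusted p = 0.0506) with the combination. Rnf19b was at 3.598 and 3.46 and, with anti-CD40, at 3.91 and 3.93, a log2 change of 0.39 (adjusted p = 0.0481, SE 0.11) whose direction turned under median scaling. Rnf31 (HOIP), the catalytic subunit of the complex that makes linear ubiquitin chains downstream of CD40, was 0.56 (adjusted p = 0.138, SE 0.24) with the combination and did not pass. Its arrays were 3.69 and 3.76 in unstimulated cells and 4.28 and 4.298 with the combination. Rnf216 (Triad3), which acts on TLRs, was 0.11 (adjusted p = 0.625, SE 0.14) with TLR2.CD86 and was not called by any of its 4 probes in any comparison with unstimulated cells.

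**Figure D3:**
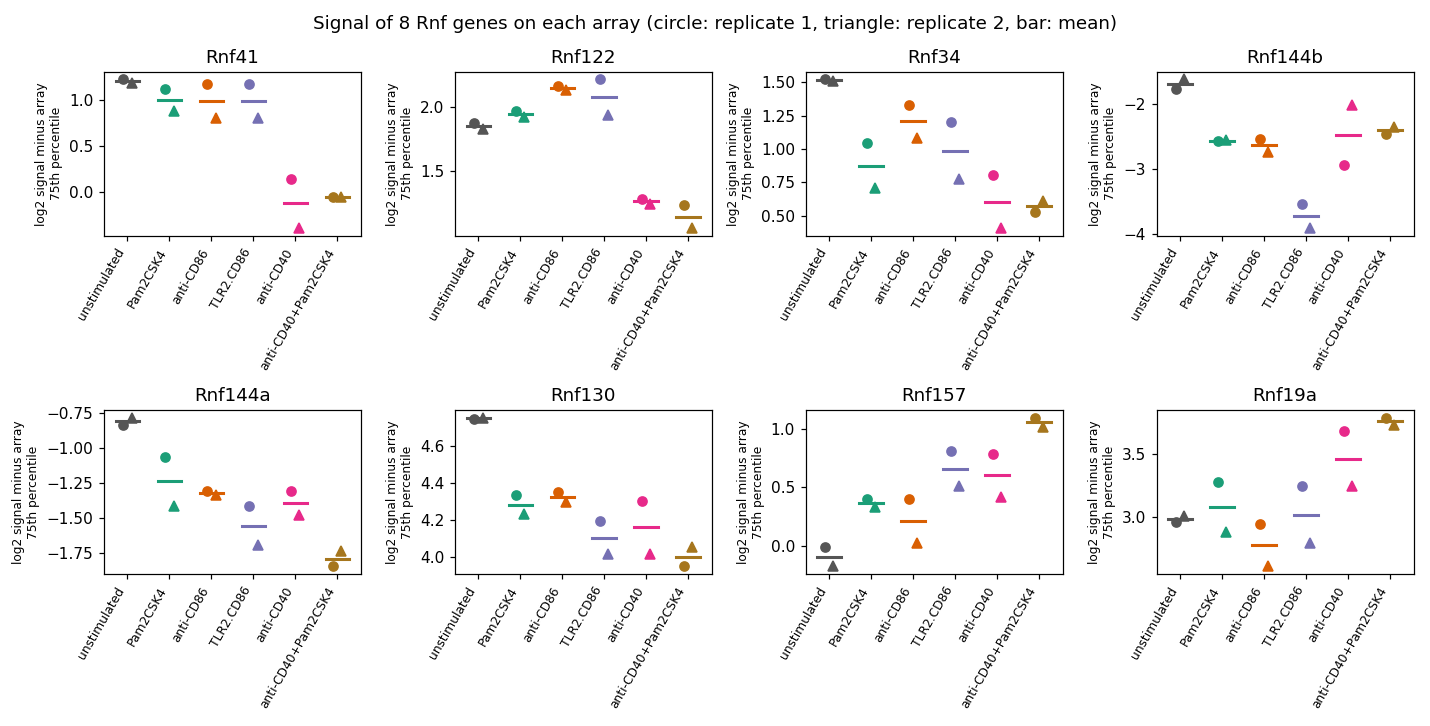
Log2 signal minus the 75th percentile of its array (vertical axis) of 8 Rnf genes in 6 groups (horizontal axis), with a circle for replicate 1, a triangle for replicate 2 and a bar for the mean. Rnf41 and Rnf122 are low on the 4 arrays with anti-CD40, Rnf144b is lowest on both TLR2.CD86 arrays, and Rnf157 is highest on both arrays of anti-CD40 with Pam2CSK4. Vertical axes differ between panels and do not start at a common level.

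The PA-TM-RING ligases sit in endosomal membranes, with 9 listed and 5 tested. With TLR2.CD86 2 were called lower, and with each anti-CD40 group 1, and none was higher. The shares of all genes called lower were 10.3% with TLR2.CD86, 14.6% with anti-CD40 and 12.9% with anti-CD40 and Pam2CSK4. Their median log2 fold change with TLR2.CD86 was -0.55 against -0.17 for all genes. Rnf130, the mammalian goliath, was at 4.75 and 4.76 in unstimulated cells, 4.195 and 4.01 with TLR2.CD86, 4.301 and 4.02 with anti-CD40 and 3.95 and 4.05 with anti-CD40 and Pam2CSK4. Every stimulated array lay below the unstimulated arrays. The log2 fold changes were -0.65 (adjusted p = 0.025, SE 0.13), -0.59 (adjusted p = 0.0221, SE 0.13) and -0.75 (adjusted p = 0.00656, SE 0.13), and relative to the median of all genes -0.48, -0.44 and -0.67. A second probe was called lower in the same 3 groups, at -0.75, -0.72 and -0.70. Both probes share 34 bases, of which the first 30 are shown because they make these measurements overlap, so the second probe is no separate evidence.
Rnf130 shared stretch: cactgctttctgactgattgccttgaagga
The change of Rnf130 with TLR2.CD86 was likewise known beforehand from these data.

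Rnf149, another member of the family, was measured by 2 probes that moved in opposite directions. The brighter one was at 3.51 and 3.45 in unstimulated cells and 2.84 and 2.79 with TLR2.CD86, a log2 change of -0.67 (adjusted p = 0.0234, SE 0.13). On every other stimulated array the brighter probe was also below the unstimulated arrays. The dimmer one gave 0.36 (adjusted p = 0.0658) with TLR2.CD86 and was called higher with anti-CD40 and Pam2CSK4, at 0.37 (adjusted p = 0.0458), where the brighter one gave -0.43 (adjusted p = 0.0531, SE 0.13). Their first 30 bases are shown because the direction given for this gene depends on the probe.
Rnf149 brighter probe: acatactttgaagagcaaggagtccattgt
Rnf149 dimmer probe: aacagtggactttattttactttacctttc

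**Figure D4:**
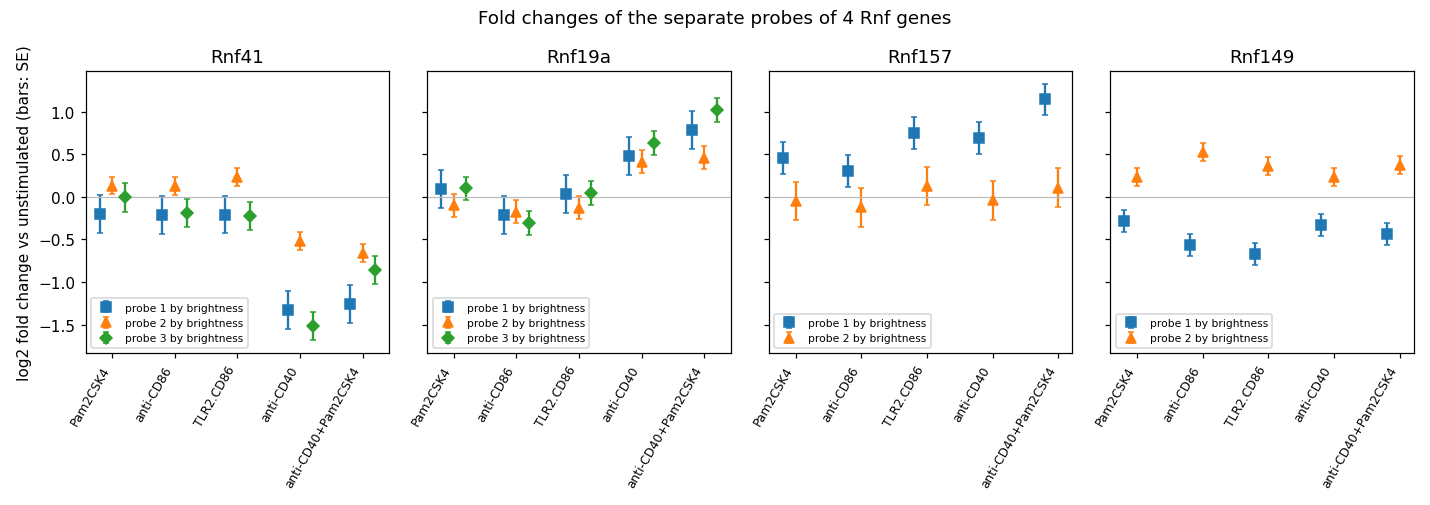
Log2 fold change against unstimulated cells (vertical axis, bars are SE) of the separate probes of Rnf41, Rnf19a, Rnf157 and Rnf149 for 5 stimulations. The 3 probes of Rnf41 are all below 0 with anti-CD40 and the 3 of Rnf19a all above 0, whereas the second probe of Rnf157 stays near 0 and both probes of Rnf149 lie on opposite sides of 0.

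Across the Rnf genes with several tested probes, the sign of a dimmer probe equalled that of the brightest one for 24 of 41 dimmer probes with Pam2CSK4, 26 with anti-CD86, 30 with TLR2.CD86, 31 with anti-CD40 and 28 with anti-CD40 and Pam2CSK4. In none of these comparisons with unstimulated cells were the brightest probe and a dimmer probe of a gene both called with opposite signs. Dimmer probes were not compared with each other.

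Of 8 ligases of the endoplasmic reticulum membrane, which serve protein quality control and sterol sensing, 1 was called lower with TLR2.CD86, 2 with anti-CD40 and 3 with anti-CD40 and Pam2CSK4, and none higher. The shares of all genes called lower were 10.3%, 14.6% and 12.9% in the same order. Rnf145, a sterol-responsive ligase, was at 6.12 and 6.16 in unstimulated cells, 5.48 and 5.05 with anti-CD40 and 5.31 and 5.12 with the combination. The log2 fold changes were -0.87 (adjusted p = 0.0272, SE 0.20) and -0.92 (adjusted p = 0.0179, SE 0.20). The other stimulated arrays also lay below the unstimulated arrays, though none of these groups passed. They were at 5.86 and 5.55 with Pam2CSK4, 5.925 and 5.71 with anti-CD86 and 5.75 and 5.33 with TLR2.CD86. Rnf139 (TRC8) was -0.46 (adjusted p = 0.0465, SE 0.12) with TLR2.CD86 and -0.42 (adjusted p = 0.0413, SE 0.12) with the combination. Rnf103 was -0.48 (adjusted p = 0.0398, SE 0.13) with anti-CD40 and -0.61 (adjusted p = 0.0146, SE 0.13) with the combination, whereas its second probe was not called, at -0.37 (adjusted p = 0.262) and -0.24 (adjusted p = 0.49). By their brightest probes, Rnf139 and Rnf103 were lower on every stimulated array than on the unstimulated arrays. Rnf5 was at 1.13 and 1.11 in unstimulated cells, 1.78 and 1.54 with anti-CD86, 1.72 and 1.49 with TLR2.CD86 and 0.84 and 0.87 with anti-CD40 and Pam2CSK4. It passed the F test across the 6 groups (limma adjusted p = 0.0229) and no comparison with unstimulated cells. Rnf170 was at 1.34 on TLR2.CD86 replicate 2 against -2.24 on replicate 1, and its difference of 2.35 (adjusted p = 0.139, SE 0.95) rests on that array.

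None of 8 ligases of chromatin, SUMO and DNA damage was called against unstimulated cells, with median log2 fold changes of -0.06, 0.18, -0.03, -0.08 and 0.28. The medians of all genes were -0.14, -0.15, -0.17, -0.15 and -0.08. Rnf2, which ubiquitinates histone H2A in Polycomb complexes, was at 5.005 and 4.99 in unstimulated cells and 5.41 and 5.28 with anti-CD40 and Pam2CSK4, a difference of 0.35 (adjusted p = 0.15, SE 0.15). Rnf4, which targets proteins modified with SUMO, was at 3.797 and 3.82 in unstimulated cells and 4.29 and 4.35 with the combination, a difference of 0.51 (adjusted p = 0.0745, SE 0.17). It passed the F test across the 6 groups (limma adjusted p = 0.0496). Rnf40, which acts on histone H2B, was 0.39 (adjusted p = 0.172, SE 0.17) with TLR2.CD86. Rnf169, which binds at DNA breaks, passed the F test alone (limma adjusted p = 0.0378), with 2.31 and 2.33 on the anti-CD86 arrays and 1.84 and 1.79 on the anti-CD40 arrays. The family of Rnf114, Rnf125, Rnf138 and Rnf166 had no call against unstimulated cells. Rnf114 was -0.43 (adjusted p = 0.171, SE 0.20) with anti-CD40, and Rnf138 was -0.44 (adjusted p = 0.128, SE 0.17) with TLR2.CD86.

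Rnf122, a membrane ligase known to act on the RNA sensor RIG-I, was at 1.88 and 1.83 in unstimulated cells, 1.97 and 1.92 with Pam2CSK4, 2.16 and 2.13 with anti-CD86 and 2.21 and 1.94 with TLR2.CD86. It was 1.29 and 1.25 with anti-CD40 and 1.24 and 1.06 with anti-CD40 and Pam2CSK4. All 4 arrays with anti-CD40 lay below all others. The log2 fold changes were -0.58 (adjusted p = 0.0205, SE 0.12) and -0.70 (adjusted p = 0.00728, SE 0.12), and the second probe gave -0.59 (adjusted p = 0.0413) and -0.94 (adjusted p = 0.00588). Rnf122 had the smallest adjusted p of the Rnf genes in the F test (limma adjusted p = 0.00442). Rnf141 was -0.56 (adjusted p = 0.0235, SE 0.12) with anti-CD40 and -0.61 (adjusted p = 0.0132, SE 0.12) with the combination, and both of its dimmest probes were called lower in these groups. The second of its 4 probes was not called in either, at -0.49 (adjusted p = 0.141) and -0.51 (adjusted p = 0.129). By the brightest probe, Rnf141 was lower on every stimulated array than on the unstimulated arrays.

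Rnf157, known from neurons, was at -0.01 and -0.18 in unstimulated cells, 0.40 and 0.33 with Pam2CSK4, 0.40 and 0.02 with anti-CD86, 0.81 and 0.51 with TLR2.CD86, 0.79 and 0.41 with anti-CD40 and 1.09 and 1.01 with the combination. Every stimulated array lay above the unstimulated arrays. The log2 fold changes were 0.75 (adjusted p = 0.0418, SE 0.18), 0.69 (adjusted p = 0.0394, SE 0.18) and 1.15 (adjusted p = 0.00499, SE 0.18) in the last 3 groups. A second probe gave 0.13 (adjusted p = 0.743), -0.04 (adjusted p = 0.923) and 0.11 (adjusted p = 0.798), so the rise was seen by the brightest probe alone. Rnf39 was not well above background on either unstimulated or either anti-CD40 array and was on both arrays of every other group. It was at least 1.66-fold higher with anti-CD86 (limma adjusted p = 0.0291), at least 1.59-fold with TLR2.CD86 (adjusted p = 0.0157) and at least 1.51-fold with anti-CD40 and Pam2CSK4 (adjusted p = 0.0068). With Pam2CSK4 it was at least 1.62-fold higher, with an adjusted p of 0.073. These bounds hold for scaling by the 75th percentile. With the median of the array they were lower, at 1.51-fold with anti-CD86 and 1.30-fold with TLR2.CD86. With anti-CD40 and Pam2CSK4 the bound was then 1.40-fold, and with Pam2CSK4 1.41-fold. Rnf39 passed the filter on dim probes only through the groups in which it was high, so its place among the called genes rests on that filter and its adjusted p values support no call. A bound is the mean of the brighter group over the lowest signal well above background on the dim arrays, or over the probe's own signal there where that is higher.

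The remaining calls were lower and were made with anti-CD86 or TLR2.CD86, or for Rnf24 also with anti-CD40. Rnf214 was -0.53 (adjusted p = 0.0442, SE 0.10) with anti-CD86 and -0.51 (adjusted p = 0.0236, SE 0.10) with TLR2.CD86. Of its 4 probes, the second gave 0.03 (adjusted p = 0.885) and -0.17 (adjusted p = 0.368) in the same order, the third 0.38 (adjusted p = 0.118) and 0.15 (adjusted p = 0.434), and the dimmest -0.15 (adjusted p = 0.541) and -0.50 (adjusted p = 0.0477). The call with TLR2.CD86 was thus made by the brightest and the dimmest probe, and that with anti-CD86 by the brightest alone. Rnf7 (Rbx2), the RING subunit of cullin ligases, was at 4.13 and 4.14 in unstimulated cells and 3.58 and 3.504 with TLR2.CD86, a log2 change of -0.59 (adjusted p = 0.0189, SE 0.10). Rnf24 was -0.57 (adjusted p = 0.0206, SE 0.11) with TLR2.CD86 and -0.53 (adjusted p = 0.0173, SE 0.11) with anti-CD40. By their brightest probes, Rnf214, Rnf7 and Rnf24 were lower on every stimulated array than on the unstimulated arrays. Rnf181 and Rnf219 (Obi1 in RefSeq) passed the F test and no comparison with unstimulated cells, with limma adjusted p = 0.0496 and 0.0418. Rnf220 was -0.25 (adjusted p = 0.285, SE 0.14) with TLR2.CD86. The 26 tested Rnf genes that the rule does not name had log2 fold changes between -0.61 and 0.46 over the 5 comparisons, and none passed.

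The second question was whether 2 signals together differed from either alone. Between TLR2.CD86 and Pam2CSK4 no Rnf gene was called, against 0.0298% of all genes, with 6 at an unadjusted p under 0.05 by limma. Between TLR2.CD86 and anti-CD86 none was called, against 0.197%, with 7 at an unadjusted p under 0.05. A slide block gave 6 and 5 calls, against 10.8% and 7.14% of all genes. Rnf144b was -1.16 (adjusted p = 0.217, SE 0.27) against Pam2CSK4 and -1.08 (adjusted p = 0.285, SE 0.27) against anti-CD86, so that its lower level with both signals than with either did not pass. In the CD86 by TLR2 interaction, which is the effect of both signals minus the sum of the single effects, none was called against 0.00597%, with 2 at an unadjusted p under 0.05.

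Between anti-CD40 with Pam2CSK4 and anti-CD40 alone no Rnf gene was called, against 2.57% of all genes, with 8 at an unadjusted p under 0.05. Rnf25 was closest, at -0.85 (adjusted p = 0.0551, SE 0.19). In the CD40 by TLR2 interaction none was called against 0.842%, with 8 at an unadjusted p under 0.05. Against Pam2CSK4 alone, 2 Rnf genes were called, both lower, against 10.5% of all genes. These were Rnf41 at -1.06 (adjusted p = 0.0218, SE 0.22) and Rnf122 at -0.79 (adjusted p = 0.00779, SE 0.12). Pam2CSK4 and anti-CD40 were spread over both slides and the combination was not. With a slide block, 22 were called against Pam2CSK4, 8 higher and 14 lower, against 34.4% of all genes, and both Rnf41 and Rnf122 stayed among the lower ones. The block gave 6 calls against anti-CD40, against 15.4% of all genes, and 2 in the interaction, against 8.01%. Without a slide block and without 1 of the arrays compared, the count against Pam2CSK4 was 0 (without anti-CD40 and Pam2CSK4 replicate 2) or 1 (without any other).

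The third question was how both combined stimuli differed. Between anti-CD40 with Pam2CSK4 and TLR2.CD86, 11 Rnf genes were called against 13.1% of all genes, 7 higher against 8.45% and 4 lower against 4.64%. The 4 lower were Rnf25 at -1.08 (adjusted p = 0.00966, SE 0.19), Rnf41 at -1.05 (adjusted p = 0.0196, SE 0.22), Rnf122 at -0.92 (adjusted p = 0.00393, SE 0.12) and Rnf5 at -0.75 (adjusted p = 0.0127, SE 0.14). The 7 higher were Rnf144b at 1.31 (adjusted p = 0.019, SE 0.27), Rnf219 at 0.88 (adjusted p = 0.0192, SE 0.18), Rnf4 at 0.82 (adjusted p = 0.0194, SE 0.17), and Rnf138, Rnf2, Rnf24 and Rnf7, which lay between 0.40 and 0.64. TLR2.CD86 was spread over both slides and anti-CD40 with Pam2CSK4 was not. All 11 had the same sign within slide 1. These values reused both arrays of anti-CD40 with Pam2CSK4 and replicate 1 of TLR2.CD86, so the shared sign is no separate evidence. Without TLR2.CD86 replicate 1 or 2, 6 or 4 were called, and without either array of anti-CD40 with Pam2CSK4, 1.

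Promoters of the Rnf genes were searched because NF-κB lies downstream of both CD40 and TLR-2. RefSeq promoters of build GRCm38.p6 were found for 49 of the 63 tested genes, with 65 start sites, and the 250 bases before each start were read. The NF-κB motif was held by 6 of these 65 (9.23%) on either strand, against 7.25% of 32851 promoters. The AP-1 motif TGANTCA was held by 1.54% against 6.75%, the E-box CACGTG by 4.62% against 6.02%, the CRE motif TGACGTCA by 1.54% against 1.55% and CCAAT by 35.4% against 33.8%. The promoters of Rnf145 and Rnf213, both called lower with anti-CD40, are shown with the NF-κB motif in capitals, which starts 85 and 77 bases before the start site. They lie on the plus strand at chr11:44519127-44519376 and chr11:119389849-119390098. Rnf145 has other start sites. The window at chr11:44518706-44518955 holds the motif 104 bases before the start, and that at chr11:44520039-44520288 holds none. A window of Rnf4, which was not called with anti-CD40, also holds the motif, 139 bases before the start. A link between the motif and the changes was not tested.
Rnf145 promoter: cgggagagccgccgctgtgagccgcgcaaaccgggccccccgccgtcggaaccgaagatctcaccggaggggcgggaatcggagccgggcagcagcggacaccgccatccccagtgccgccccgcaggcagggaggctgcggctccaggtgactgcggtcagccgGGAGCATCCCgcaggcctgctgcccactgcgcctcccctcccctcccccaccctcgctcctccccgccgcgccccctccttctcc
Rnf213 promoter: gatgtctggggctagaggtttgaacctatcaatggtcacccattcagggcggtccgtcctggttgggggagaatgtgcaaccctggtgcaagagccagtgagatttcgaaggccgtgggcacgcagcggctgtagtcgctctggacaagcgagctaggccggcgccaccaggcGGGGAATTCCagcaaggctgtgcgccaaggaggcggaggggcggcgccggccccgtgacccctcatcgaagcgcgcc
No match to these 5 motifs was found in the promoter window of Rnf41 or in those of Rnf144b, which says only that these letters are not in the windows.

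Ubiquitin ligases and partners without an Rnf symbol were listed for comparison, 38 in all, of which 37 were on the array and 33 were tested. None was called with Pam2CSK4 or anti-CD86, 1 was called lower with TLR2.CD86, 3 higher and 4 lower with anti-CD40, and 6 higher and 7 lower with anti-CD40 and Pam2CSK4. Of all genes, 10.3% were called lower with TLR2.CD86. With anti-CD40 4.66% were higher and 14.6% lower, and with anti-CD40 and Pam2CSK4 7.36% and 12.9%. Peli1, a ligase of TLR signalling, was -0.50 (adjusted p = 0.0402) with TLR2.CD86, -0.88 (adjusted p = 0.00521) with anti-CD40 and -1.23 (adjusted p = 7.11e-04) with the combination. Sharpin, the partner of Rnf31 in the linear chain complex, was -0.70 (adjusted p = 0.0232) with anti-CD40 and -0.70 (adjusted p = 0.018) with the combination. Siah2 was 0.99 (adjusted p = 0.0112) and 1.53 (adjusted p = 0.00125) in the same groups.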

How the data were processed

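RNA was labelled with Cy3 and hybridised to a custom mouse array of 60-base probes annotated to mm9. The authors extracted images with Feature Extraction 10.5.1.1 and deposited a processed signal intensity per spot, from which each array's background had been subtracted, with no scaling between arrays. They also deposited a table of log2 values, each column of which equalled the log2 intensity minus 1 constant per array. From the deposited intensity, the log2 value minus the 75th percentile of the array was computed, without control spots and outlier spots (5 to 35 per array), keeping saturated spots. The number of arrays limits the precision.

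A probe was kept where 1 or more groups had it well above background on both arrays (31667 of 61307), and 68 with a missing value were left out after the data were seen, which left 31599. limma 3.58.1 in R 4.3.3 was fitted over 12 arrays with 1 coefficient per group, the one way layout of the methods, with Benjamini-Hochberg adjustment over all probes. It was tested on simulated data. Each gene is given by its brightest probe, and shares of all genes refer to brightest probes with a symbol. Python 3.11.15 with pandas 2.3.3, numpy 2.4.6 and, for plots, matplotlib 3.10.9 was used for the rest.

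Members, gene lists and tests were chosen with earlier results of these data known. Named were genes called against unstimulated cells or by the F test, the 3 highest and 3 lowest per comparison with unstimulated cells, the 5 brightest in unstimulated cells, the 2 brightest of each role list, genes that crossed the background between groups, and Rnf216, Rnf130, Rnf144b and Rnf138, which other criteria also name. A gene that met the rule is not reported here, though it stays in the counts. In RefSeq, 75 of 79 symbols were the same, 2 had another symbol (Rnf160 is Ltn1, Rnf219 is Obi1) and 2 had no match. Alternatives were normexp (offset 50), median and quantile normalization, no filter, a stricter filter, the slide and the replicate number as blocks, the authors' table, other probes, values within slide 1, leaving out each array and, after the data were seen, keeping probes with a missing value. Same-numbered arrays were checked for pairing. Deviations correlated between -0.11 and 0.07 for pairs with unstimulated cells or with anti-CD40 and Pam2CSK4, and 0.54 to 0.67 among the other 4 groups, in which the number equals the slide, so the numbers were not taken to pair the samples.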

Additional observations from a re-analysis of the deposited data

How the results depend on the processing

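Counts of Rnf genes called in the 13 tests (a single name stands for the comparison with unstimulated cells) were 0 for Pam2CSK4, 2 for anti-CD86, 13 for TLR2.CD86, 12 for anti-CD40, 14 for anti-CD40+Pam2CSK4, 0 for TLR2.CD86 against Pam2CSK4, 0 for TLR2.CD86 against anti-CD86, 0 for anti-CD40+Pam2CSK4 against anti-CD40, 2 for anti-CD40+Pam2CSK4 against Pam2CSK4, 11 for anti-CD40+Pam2CSK4 against TLR2.CD86, 0 for CD86 by TLR2 interaction, 0 for CD40 by TLR2 interaction and 19 for the F test. The authors' values and the one way test of the methods moved no count by more than 1.5 times, nor did keeping probes with a missing value. Under median normalization, the count became 0 for anti-CD86, 1 for TLR2.CD86, 1 for anti-CD40, 0 for anti-CD40+Pam2CSK4, 0 for anti-CD40+Pam2CSK4 against Pam2CSK4, 1 for anti-CD40+Pam2CSK4 against TLR2.CD86 and 2 for the F test. With no filter on dim probes, the count became 0 for anti-CD86, 0 for TLR2.CD86, 1 for anti-CD40, 8 for anti-CD40+Pam2CSK4, 0 for anti-CD40+Pam2CSK4 against Pam2CSK4, 2 for anti-CD40+Pam2CSK4 against TLR2.CD86 and 1 for the F test. With normexp background correction, the count became 4 for anti-CD86 and 6 for anti-CD40+Pam2CSK4 against Pam2CSK4. Under quantile normalization, the count became 5 for anti-CD86 and 8 for anti-CD40+Pam2CSK4 against Pam2CSK4. With a replicate block, the count became 8 for anti-CD86, 23 for TLR2.CD86, 20 for anti-CD40, 1 for anti-CD40+Pam2CSK4 against anti-CD40, 13 for anti-CD40+Pam2CSK4 against Pam2CSK4, 17 for anti-CD40+Pam2CSK4 against TLR2.CD86 and 29 for the F test. With a slide block, the count became 11 for Pam2CSK4, 22 for anti-CD86, 30 for TLR2.CD86, 27 for anti-CD40, 34 for anti-CD40+Pam2CSK4, 6 for TLR2.CD86 against Pam2CSK4, 5 for TLR2.CD86 against anti-CD86, 6 for anti-CD40+Pam2CSK4 against anti-CD40, 22 for anti-CD40+Pam2CSK4 against Pam2CSK4, 27 for anti-CD40+Pam2CSK4 against TLR2.CD86, 2 for CD40 by TLR2 interaction and 51 for the F test. With probes well above background on all 12 arrays, the count became 1 for anti-CD40+Pam2CSK4 against anti-CD40 and 6 for anti-CD40+Pam2CSK4 against Pam2CSK4. With a gene called where any tested probe was, the count became 1 for anti-CD40+Pam2CSK4 against anti-CD40 and 4 for anti-CD40+Pam2CSK4 against Pam2CSK4. Leaving out 1 array at a time gave 0 for Pam2CSK4, 0 for anti-CD86, 0 to 5 for TLR2.CD86, 0 to 15 for anti-CD40, 3 to 6 for anti-CD40+Pam2CSK4, 0 to 1 for TLR2.CD86 against Pam2CSK4, 0 to 1 for TLR2.CD86 against anti-CD86, 0 to 1 for anti-CD40+Pam2CSK4 against anti-CD40, 0 to 1 for anti-CD40+Pam2CSK4 against Pam2CSK4, 1 to 6 for anti-CD40+Pam2CSK4 against TLR2.CD86, 0 for CD86 by TLR2 interaction, 0 for CD40 by TLR2 interaction and 2 to 23 for the F test, where a lone array was assumed to vary like the other groups. In the 4 groups on both slides the same-numbered arrays share a slide, which the replicate block separates in part, and in the other 2 groups they share only a number. Of 41 fold changes past the threshold, all kept their direction within slide 1 and under the slide block, and Rnf19b with anti-CD40 turned to -0.18 under median normalization. For the 14 with anti-CD40+Pam2CSK4 this was fixed in advance, because both groups compared lay wholly on slide 1. For the rest, the values within slide 1 reused both unstimulated arrays and replicate 1 of the stimulated group. With both groups at 2 arrays and the median intensity of an array (17.3 to 51.3) near background, small changes of dim genes could not be measured. The cause of the changes in the counts was not tested.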
